A study of Drosophila melanogaster with 2 samples.

Results

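Proteasome subunit genes were examined in chromatin immunoprecipitation sequencing (ChIP-seq) of Bsh, a homeodomain transcription factor known for specifying neurons of the optic lobe. A gene was included if it is protein-coding in the Ensembl annotation and its name begins with Prosalpha, Prosbeta, Rpn or Rpt followed by a number. This gave 48 of the 13945 protein-coding genes on 2L, 2R, 3L, 3R, 4 and X. Their names divided them into 7 alpha and 7 beta subunits of the core particle, 10 subunits of the base and 8 of the lid of the regulatory particle, and 16 further copies whose names end in R or T, with or without a number. The rule uses names and no peak values, but the family was picked for study with earlier results of these data known.

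The data come from whole *Drosophila melanogaster* embryos of the strain bsh-GFP, with 2 biological replicates of this 1 group. Their age, 10 to 12 h, is that of the source name, since the separate age field of the labels gives an impossible number of hours. A stably inserted transgene in these embryos encodes Bsh fused at the C terminus to green fluorescent protein (GFP). The precipitation used an antibody against GFP according to the sample description, although another label names bsh as the antibody. Whole embryos hold many cell types, the sex was not recorded, and which cells make the fusion protein was not measured. No control sample was analysed here, and the read depth of the replicates is unknown. There was no other group to compare, so the results are counts and values set beside those of all protein-coding genes, with no significance test, and the spread is shown by giving each replicate.

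The proteasome degrades proteins that carry ubiquitin chains. Its core particle is a barrel in which rings of alpha subunits guard the entrance and rings of beta subunits hold the cutting sites. The regulatory particle sits on the barrel: the base unfolds substrates with a ring of ATPases, the Rpt subunits, and the lid removes the ubiquitin chain. Nearly every cell needs the standard subunits, whereas many of the additional copies in this fly are known for expression in the testis, where they can replace standard subunits in the male germ line.

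IDR peaks are the set that the authors thresholded by the irreproducible discovery rate. Over all 48 genes they were about as common at promoters as in general, but none was at an R or T copy. Within the complex most of them were at lid genes. The IDR set holds 7927 peaks, and a promoter summit is the highest point of a peak lying within 500 bp of a transcription start site (TSS) of the gene. In this set 10 of the 48 genes (20.8%) had a promoter summit, where 23.5% of all protein-coding genes did. All 10 were among the 32 standard subunits (31.25%). By part of the complex, the count was 6 of 8 for the lid, 2 of 10 for the base, 1 of 7 for the alpha subunits, 1 of 7 for the beta subunits and 0 of 16 for the R or T copies. The pooled list, which extends to 30000 peaks and so to much weaker ones, had a promoter summit at 26 genes (54.2%) against 46.4% of all protein-coding genes. All 26 were among the 32 standard subunits (81.25%), and the pooled list held no promoter summit of an R or T copy. The lowest −log10 q-value of the authors was 0.394 in the pooled list, 0.415 in replicate 1 and 0.457 in replicate 2, against 4.33 in the IDR list. Weak peaks of the longer lists may therefore be false calls.

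**Figure D1:**
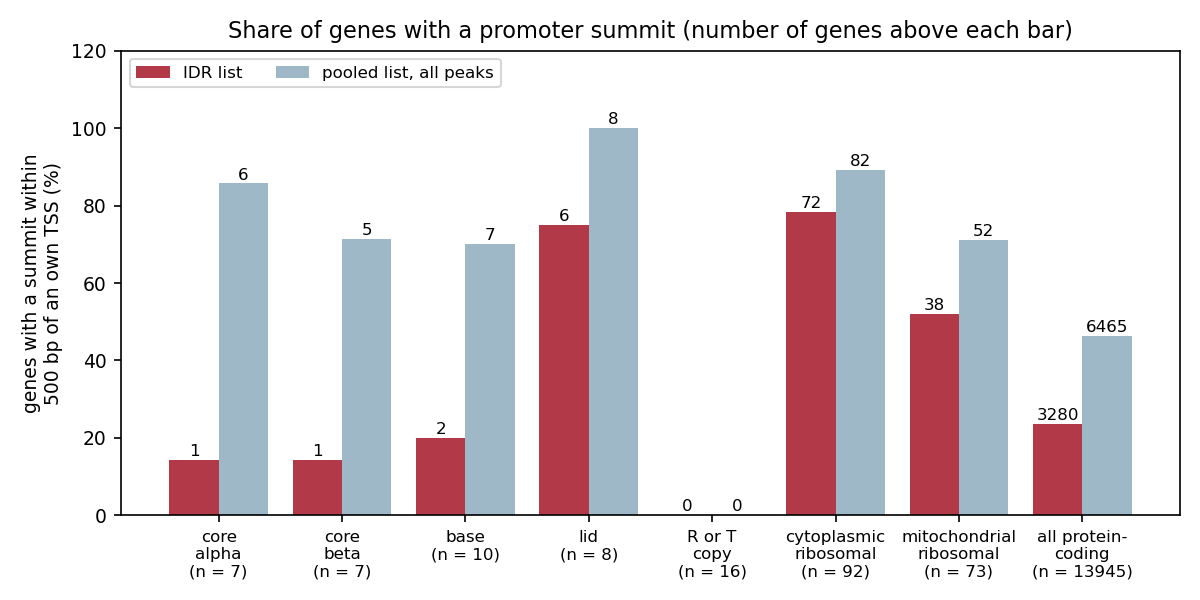
Percent of genes with a promoter summit (no more than 500 bp from a TSS of the gene) in the IDR list (dark bars) and in the whole pooled list (light bars), for the 5 groups of proteasome genes, 2 families of ribosomal protein genes and all protein-coding genes, with the number of genes above each bar. The lid stands at 6 of 8 genes in the IDR list, and the R or T copies stand at 0 of 16 in both lists.

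The peaks at proteasome promoters were mostly of modest height. The height is given as the signal value, a score in the authors' peak lists that can be compared only within a list. Among the 10 genes with an IDR promoter summit the median signal value of the strongest one was 242, and among the 3280 protein-coding genes with such a summit it was 365. The weakest IDR peak had 151. Just inside this limit were Rpn12 with 153 and Rpt5 with 168, and just outside it were Prosalpha7 with 146, Rpn2 with 142 and Rpt2 with 134. Among the 1000 strongest peaks only Rpn3 remained of the 48 genes, where 4.2% of all protein-coding genes had a promoter summit.

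**Figure D2:**
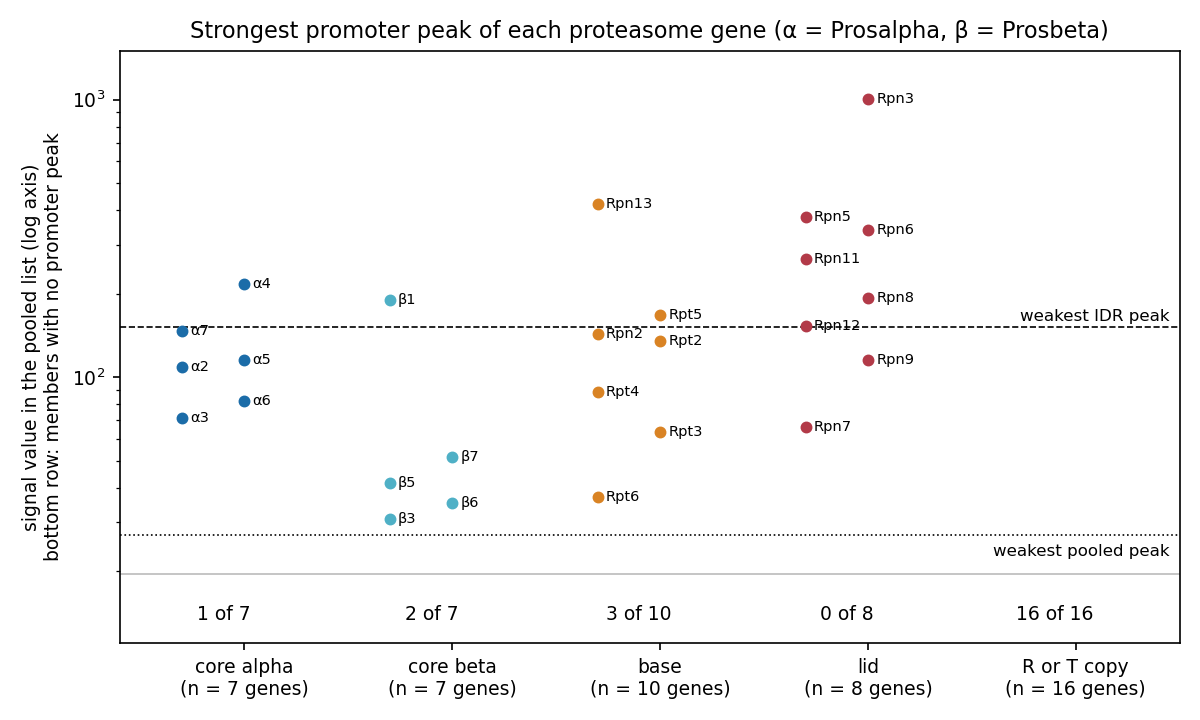
Signal value of the strongest promoter peak of each gene in the pooled list, on a log axis, by part of the complex, with 1 point per gene. The dashed and dotted lines mark the weakest peak of the IDR and pooled lists, and the bottom row counts the genes with no promoter peak, from 0 of 8 in the lid to 16 of 16 among the R or T copies.

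Each of the 8 lid genes that the name rule found had a promoter summit in the pooled list and in each replicate list, and 6 of the 8 had 1 in the IDR list. Rpn3, a scaffold subunit of the lid, had the strongest peak of the family, on chr2L:19051521-19051964 with a signal value of 1006 in the pooled replicates. Its signal value was 622 in replicate 1 and 381 in replicate 2, which ranked it 714 and 1021 of the 30000 peaks in each list. The summit lay 12 bp upstream of the Rpn3 TSS, in the space between Rpn3 and the divergent gene l(2)37Bb, whose TSS was 166 bp away. Rpn5, another scaffold subunit, had 2 IDR promoter summits. The stronger, on chr3R:5789063-5789350, had a signal value of 378 in the pooled replicates, 203 in replicate 1 and 166 in replicate 2, with ranks of 3473 and 3165. The weaker, on chr3R:5789323-5789487, had 153 in the pooled replicates, and its rank in replicate 2, 19510, lay far outside the top 7927. Both Rpn5 summits were nearer to the TSS of Hat1 on the opposite strand, at 155 and 44 bp, than to that of Rpn5, at 264 and 65 bp.

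The enzyme of the lid and its partner also had promoter summits. Rpn11, the subunit that cuts the ubiquitin chain off the substrate, had a signal value of 267 in the pooled replicates, 187 in replicate 1 and 101 in replicate 2. Its summit, on chr2L:5059930-5060168, lay 205 bp upstream of the TSS, and the next gene, qtc, started 820 bp away, so no other protein-coding TSS lay within 500 bp. Rpn8, which forms a pair with Rpn11, had 193 in the pooled replicates, 105 in replicate 1 and 77.3 in replicate 2. The Rpn8 summit lay inside an intron, 159 bp from an internal TSS that is 2977 bp from the 5′ end of the gene and 166 bp from a TSS of Slik. Rpn3 and Rpn11 thus had their peaks at the start of the gene, Rpn8 at an alternative start within it.

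Rpn6 and Rpn12 completed the lid genes with an IDR promoter summit. Rpn6 had a signal value of 339 in the pooled replicates, 170 in replicate 1 and 168 in replicate 2, from a summit inside the gene at a TSS that is 639 bp from its 5′ end. A TSS of ave lay nearer to that summit, at 111 bp against 139 bp. Rpn12 had 153 in the pooled replicates, 102 in replicate 1 and 73.7 in replicate 2, from a summit 136 bp upstream of its TSS. The remaining lid genes were below the IDR limit: Rpn9 had 114.9 and Rpn7 had 66.2 in the pooled list. With a distance of 100 bp in place of 500 bp the lid count was 2 of 8, where 7.16% of all protein-coding genes had a promoter summit. Counting only summits nearest to the own TSS, a choice made after seeing the data, it was 4 of 8, namely Rpn3, Rpn8, Rpn11 and Rpn12. By that rule 5 of the 48 proteasome genes and 2457 of the 13945 protein-coding genes had a summit.

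The sequences under the summits of Rpn3, Rpn5, Rpn11 and Prosalpha4 are shown because these are the strongest promoter peaks of the family for which sequence is printed here. Each is the annotated exon-free part within 50 bp of the summit, 5′ to 3′ on the strand of the gene, from the release 6 genome (dm6). They lie on chr2L:19051728-19051789 (plus strand), chr3R:5789179-5789279 (plus strand), chr2L:5059945-5060045 (minus strand) and chrX:16275918-16276005 (plus strand). Capitals mark TAATTA, the core of many homeodomain sites.
Rpn3: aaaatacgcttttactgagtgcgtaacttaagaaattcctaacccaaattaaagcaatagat
Rpn5: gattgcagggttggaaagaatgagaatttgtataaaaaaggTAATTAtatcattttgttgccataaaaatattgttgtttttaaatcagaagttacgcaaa
Rpn11: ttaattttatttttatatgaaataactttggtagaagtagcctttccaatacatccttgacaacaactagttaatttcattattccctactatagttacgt
Prosalpha4: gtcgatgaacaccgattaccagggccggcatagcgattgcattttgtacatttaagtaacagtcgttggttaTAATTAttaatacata
TAATTA was found under the summits of Rpn5 and Prosalpha4 and not under the stronger peak of Rpn3. Of the 11 IDR promoter summits of the family, 2 (18.2%) had it within 50 bp, against 11.1% of the 2639 IDR promoter summits of all protein-coding genes. The count was 1 within 25 bp and 4 within 100 bp, and with the strongest 7927 peaks of a single replicate it was 3 in replicate 2 and 2 in replicate 1. In the pooled list 3 of the 32 promoter summits of the family (9.38%) had TAATTA, against 7.57% of all 7547. The shorter TAAT, which TAATTA contains, was near 8 of the 11 (72.7%), against 77.8% of all. The windows were rich in A and T, with a mean GC content of 32.1% against 33.0% for all IDR promoter summits.

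In the base, IDR promoter peaks were found at a ubiquitin receptor and at a single ATPase. Rpn13, which binds ubiquitin chains, had a signal value of 422 in the pooled replicates, the second highest of the family, with 245 in replicate 1 and 166 in replicate 2. Its summit lay 45 bp upstream of the TSS and 226 bp from that of CtsL1. Of the 6 ATPase genes only Rpt5 had an IDR promoter summit, with 168 in the pooled replicates, 105 in replicate 1 and 63.9 in replicate 2. It ranked 6785 in replicate 1 and 8650 in replicate 2, on either side of the IDR number of 7927 peaks. The Rpt5 summit lay between this gene and the divergent RanBP3, 23 bp from the former and 19 bp from the latter, whose TSSs are only 42 bp apart.

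The other ATPases formed a descending series of weaker peaks. In the pooled list Rpt2 had a signal value of 134, Rpt4 had 88.3, Rpt3 had 63.4 and Rpt6 had 37.0. Rpt1 had no promoter summit in any of the 4 lists. Among the other base genes, Rpn2, the scaffold that holds Rpn13, had 142 in the pooled list, and Rpn10, another ubiquitin receptor, had no promoter summit in any list. Rpn1, a scaffold of the base, had a promoter summit in replicate 1, with a signal value of 89.5 and rank 7895, and in replicate 2, with 31.1 and rank 16574, yet none in the pooled list.

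Most genes of the alpha ring had promoter peaks, nearly all below the IDR limit. Of its 7 genes, 6 had a promoter summit in the pooled list, and only Prosalpha4 had 1 in the IDR list, on chrX:16275891-16276046. Its signal value was 216 in the pooled replicates, 136 in replicate 1 and 80.7 in replicate 2. The summit lay 315 bp upstream of the Prosalpha4 TSS and only 38 bp from that of kat80, within the span of kat80. Below the IDR limit, Prosalpha7 had 146, Prosalpha5 had 115.1, Prosalpha2 had 108, Prosalpha6 had 81.8 and Prosalpha3 had 71.5 in the pooled list. These genes were seen in both replicates, with ranks from 8593 to 13011 in replicate 1 and from 9027 to 19374 in replicate 2. Prosalpha1 had no promoter summit in any list.

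The beta ring had the lowest median signal value among the 4 groups of standard subunits. Prosbeta1, which holds a caspase-like cutting site, had an IDR promoter summit with a signal value of 190 in the pooled replicates, 86.7 in replicate 1 and 95.2 in replicate 2. It ranked 8115 in replicate 1, outside the top 7927, and 5833 in replicate 2. The summit lay 71 bp from the Prosbeta1 TSS and 50 bp from that of Rrp42. In the pooled list Prosbeta7 had 51.7, Prosbeta5, which holds the chymotrypsin-like site, had 41.7, Prosbeta6 had 35.2 and Prosbeta3 had 30.9, near the lowest value of that list, 26.9. Prosbeta2, which holds the trypsin-like site, had promoter summits only in the replicate 1 list, the stronger with rank 18202, and Prosbeta4 had none in any list. The median signal value of the strongest pooled promoter summit was 41.7 over the 5 beta genes with 1, 112 over 6 alpha genes, 134 over 7 base genes and 230 over 8 lid genes, and it was 155 over the 6465 protein-coding genes with such a summit.

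The R or T copies had almost no promoter summits. Prosalpha1R, Prosalpha3T, Prosalpha4T1, Prosalpha4T2, Prosalpha6T, Prosbeta2R1, Prosbeta2R2, Prosbeta4R1, Prosbeta4R2, Prosbeta5R1, Prosbeta5R2, Rpn12R, Rpn13R, Rpt3R, Rpt4R and Rpt6R had no promoter summit in the IDR list, the pooled list or replicate 2. In replicate 1 a single summit was near a copy, 440 bp downstream of the Prosbeta2R2 TSS, with a signal value of 23.4 and rank 24246. For comparison, 48% of all protein-coding genes had a promoter summit in replicate 1 and 48.4% in replicate 2. Copies and standard subunits also differ in their surroundings. Of the 16 copies, 3 (18.8%) had the TSS of another protein-coding gene within 500 bp of their own, whereas 21 of the 32 standard subunits (65.6%) did, as did 30.9% of all protein-coding genes. The part of this difference in the contrast of peaks was not tested. The 3 copies with such a neighbour were Rpt3R, 19 bp from the TSS of Alg12, Prosbeta2R2, 129 bp from that of CG1116, and Prosalpha1R, 400 bp from that of CG12822. Prosbeta2R2 had the single summit in replicate 1, and no list held a promoter summit of Rpt3R or Prosalpha1R.

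Sequence that occurs more than once in the genome touches only a few of these genes. Of 31-base words within 250 bp of the 5′ end of each gene, at least 95% occurred a single time on the analysed chromosomes for 45 of the 48 genes. For Prosalpha1 no word was unique, and the same held for Prosalpha1R, 1734 bp away. Neither gene had a promoter summit in any list, and the part of repeated sequence in this was not tested. Apart from Prosalpha1R, all copies were at least 95% unique. The lowest of the lid was Rpn3 with 77.9%. Leaving out Prosalpha1 and Prosalpha1R could not change the count of 10 genes with an IDR promoter summit, since neither had one.

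Most proteasome genes with a promoter summit in either replicate had 1 in both. A gene was counted if each list held any summit within 500 bp of an own TSS. The strongest summits of the replicates need not coincide, and at Prosalpha3, Prosbeta7 and Rpn7, for example, they lay apart. Of the 48 genes, 25 (52.1%) had a promoter summit in both replicate lists, 3 only in replicate 1, 1 only in replicate 2 and 19 in neither, and 42.4% of all protein-coding genes had 1 in both. Across these 25 genes, log2 signal in replicate 1 correlated with that in replicate 2 at Pearson's r = 0.842 (Spearman's rho = 0.853). This is a description across genes, which are not independent replicates and share each library and the control file. Rpn3 ranked first of the family in both lists. The next were Rpn13, Rpn5 and Rpn11 in replicate 1, at ranks 2741, 3473 and 3835, and Rpn6, Rpn13 and Rpn5 in replicate 2, at ranks 3109, 3161 and 3165. Restricted to the strongest 7927 peaks of each replicate, 10 genes remained in replicate 1, 10 in replicate 2 and 8 in both, where 23.7%, 23.98% and 20.9% of all protein-coding genes did. Of the 10 genes with an IDR promoter peak, each had an overlapping peak in both replicates. This was largely fixed beforehand, since the IDR set equals the 7927 strongest peaks of the pooled list, which combines both replicates. The strongest overlapping summits lay within 75 bp of the IDR summit except for the weaker peak of Rpn5, where the strongest overlapping peak of replicate 1 was the one at the stronger Rpn5 peak.

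**Figure D3:**
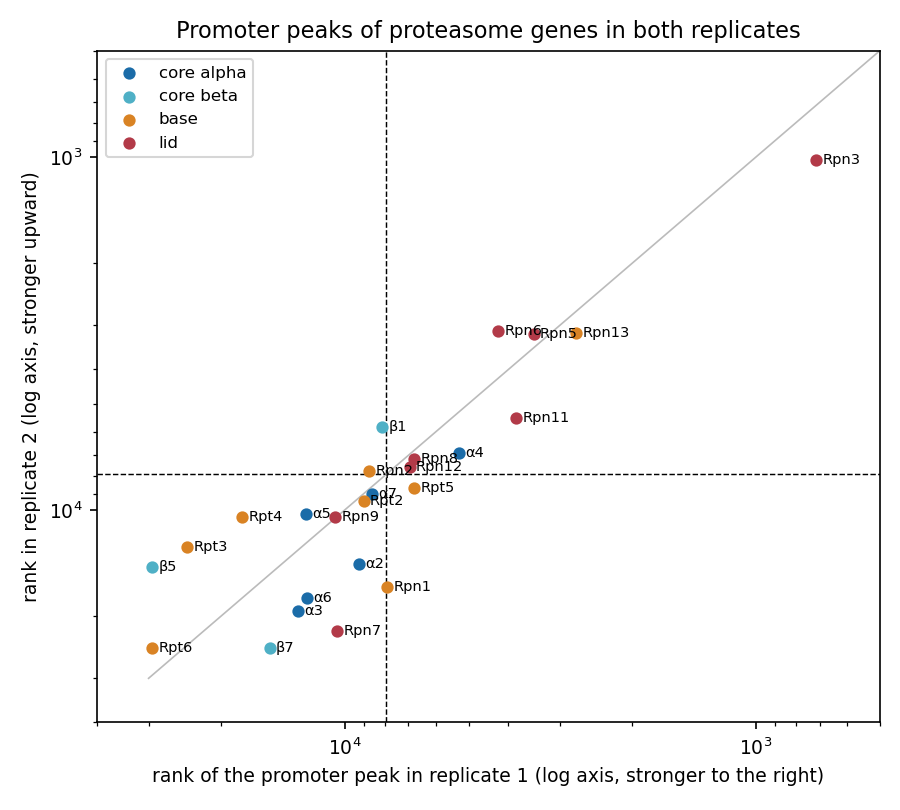
Rank of the strongest promoter peak in replicate 1 and replicate 2 for the 25 genes with a promoter summit in both lists, on reversed log axes so that stronger peaks are to the upper right, coloured by part of the complex. Dashed lines mark rank 7927, the number of IDR peaks, the diagonal marks equal ranks, and Rpn3 lies apart at ranks 714 and 1021.

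The strongest promoter summits lay mostly upstream of an own TSS, often close to the TSS of a neighbour. In the IDR list those of Rpn6 and Rpn8 lay inside their own genes, and those of Rpn5 and Prosalpha4 within the spans of Hat1 and kat80. In the IDR list the strongest promoter summit lay upstream of the nearest own TSS at all 10 genes, by 12 to 315 bp with a median of 137.5 bp, and among all protein-coding genes 86.2% lay upstream with a median of 137 bp. In the pooled list 21 of the 26 summits (80.8%) lay upstream, near the 76.8% of all protein-coding genes with a pooled promoter summit. Rpt2, Rpt3, Prosalpha5, Prosbeta5 and Prosbeta7 had theirs 13 to 50 bp downstream. The own TSS was the nearest protein-coding TSS at 5 of the 10 genes, Rpn3, Rpn8, Rpn11, Rpn12 and Rpn13. At the other 5, Rpn5, Rpn6, Rpt5, Prosalpha4 and Prosbeta1, a neighbour was nearer, and among all protein-coding genes with a promoter summit the own TSS was nearest for 74.9%. Where another TSS lay within 500 bp, 8 of 21 standard subunits (38.1%) had an IDR promoter summit, beside 42.0% of all genes with such a neighbour. Where none did, 2 of 11 (18.2%) had 1, beside 15.2%. A peak between divergent starts cannot be assigned to either gene from these data.

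**Figure D4:**
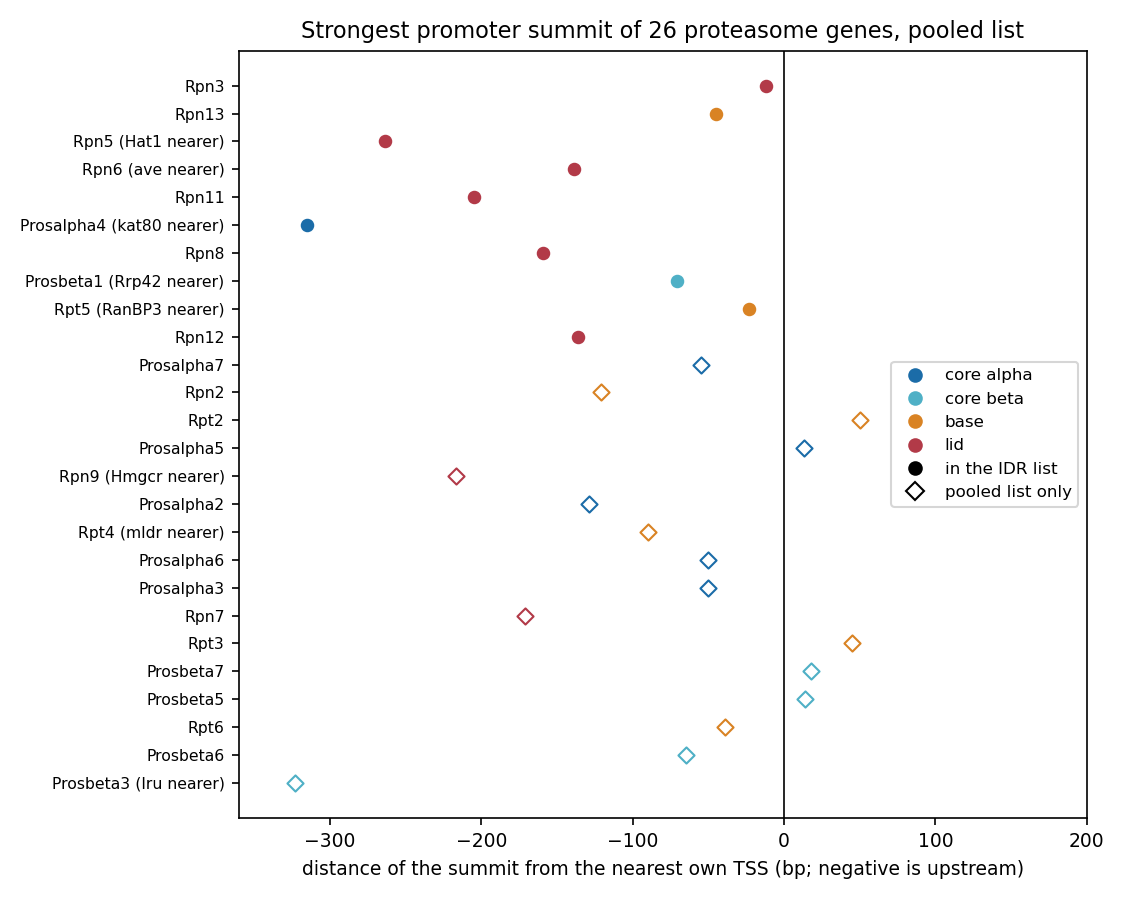
Distance in bp from the nearest own TSS to the strongest promoter summit of each of the 26 genes with 1 in the pooled list, ordered by signal value from top to bottom, with filled circles for summits of the IDR list and open diamonds for the others. A gene in brackets has a TSS nearer to the summit, and 21 of the 26 summits lie upstream of the own TSS, beside 76.8% over all protein-coding genes.

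Most summits elsewhere around the genes lay within 500 bp of another gene's TSS. Within the gene span and 2 kb either side, 19 of the 48 genes (39.6%) had an IDR summit, where 41.8% of all protein-coding genes did, and 9 of these 19 had no promoter summit. Apart from the promoter summits, 18 summits lay in the windows of 13 genes, none inside the span of that gene, 13 beyond the 3′ end and 5 upstream. Of these 18, 12 lay within 500 bp of another protein-coding gene's TSS. The same share was not counted for all protein-coding genes, so whether it is particular to these genes is unknown. The strongest was 206 bp beyond the 3′ end of Rpn5, on chr3R:5791513-5791971, with a signal value of 2054 and ranks of 195 and 214 in the replicates. It lay 104 bp from the TSS of Hpf1, a factor of protein ADP-ribosylation. Peaks beyond Prosalpha3, with 1312 and 1164, lay 1369 and 694 bp from the TSS of CG10543, and those beyond Prosalpha4, with 1199 and 575, were nearest to eas. The peak in the window of Prosalpha1, with 813, lay 68 bp from the TSS of phr, and that of Rpt6, with 887, lay 195 bp from the TSS of anox. Prosbeta2R2 was the only R or T copy with an IDR summit in its window: the summits, with 318 and 158, were both nearest to cno, at 1325 and 30 bp. Prosbeta6, Rpn2, Prosalpha2, Rpt4 and Rpn9 were the other genes with a summit in the window alone, with signal values from 155 to 635. The Rpn9 summit, with 165, was the only 1 of the 18 with the own TSS as the nearest, at 1886 bp.

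The promoters of the standard subunits often held TATCGATA, the DNA replication-related element bound by DREF, a factor of growth and housekeeping genes in this fly. Between 250 bp upstream and 50 bp downstream of the 5′ end, 12 of the 32 standard subunits (37.5%) had this word and none of the 16 copies did, against 9.37% of all protein-coding promoters of this length. The word is its own reverse complement. By part of the complex it was found at 4 of 8 lid genes, 3 of 7 alpha genes, 3 of 7 beta genes and 2 of 10 base genes. The shorter CGATA, contained in it and searched on both strands, was found at 27 of the 32 (84.4%) and at 8 of the 16 copies, against 47.5% of all. GGTCACACT, the core of the element bound by M1BP, was found at 5 of 32 standard subunits and 0 of 16 copies against 6.05% of all, and TGANNNNGC, a form of the antioxidant response element, at 10 of 32 and 4 of 16 against 35.7% of all. GAGAG was found at 3 of 32 and 6 of 16 against 29.8% of all, and TAATTA at 3 of 32 and 2 of 16 against 20.5% of all.

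The elements themselves are shown for the standard subunits on 2L, 3L and 3R, because this was the word found at 12 standard subunits and at none of the copies. Each run holds 30 bases, 5′ to 3′ on the strand of the gene, with the element in capitals, at chr2L:10221324-10221353, chr3L:14999930-14999959, chr3L:16610444-16610473, chr3R:23752819-23752848, chr3L:16582801-16582830, chr2L:19051582-19051611, chr3R:22462033-22462062 and chr3R:23733418-23733447 in this order (dm6).
Prosalpha6: cccgaatccctTATCGATAcccgatacaca
Prosbeta2: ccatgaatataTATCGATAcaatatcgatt
Prosbeta6: gtatgtataccTATCGATAacgtttaagca
Rpt5: atcgctgtcacTATCGATAagcgccggcga
Rpn12: ttgttaaaataTATCGATAttaaagcacaa
Rpn3: tgttatcggagTATCGATAtcgaaaaggct
Rpn7: gcggtataattTATCGATAattttggggtc
Rpn9: gcccggttaaaTATCGATAttctcgcggat
The element lay 19 bp from the IDR summit of Rpt5, 76 bp from that of Rpn12 and 181 bp from that of Rpn3, the strongest of the family. At Prosalpha6, Prosbeta6, Rpn7 and Rpn9 it lay 38, 24, 177 and 205 bp from a weaker summit of the pooled list, and the nearest IDR summit was 1143 bp away or more. At Prosbeta2 the nearest pooled summit was 5280 bp away. Standard subunits with the element had an IDR promoter summit at 5 of 12 genes and a pooled 1 at 11 of 12, and those without it at 5 of 20 and 15 of 20. Among all protein-coding genes the IDR shares were 36.8% with the element and 22.1% without it, and the pooled shares were 68.1% and 44.1%. The element was searched only at the 5′ end of each gene, whereas a promoter summit could lie at any own TSS. For Rpn6 and Rpn8, both without the element, the IDR summit was at a TSS away from that end.

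Directly under the summits, within 50 bp, TATCGATA was present at 2 of the 11 IDR promoter summits of the family (18.2%), those of Prosbeta1 and Rpt5, against 2.50% of all IDR promoter summits. This count rests on few summits: with the strongest 7927 peaks of replicate 2 alone it was 0 and with those of replicate 1 alone it was 1, and it was 1 within 25 bp and 4 within 100 bp. The IDR summits of Prosbeta1 and Rpt5 were both nearer to the TSS of a neighbour, Rrp42 and RanBP3 respectively, than to their own. Over the 32 promoter summits of the pooled list TATCGATA was present at 6 (18.8%) against 3.15% of all 7547. CAGGTA, the site of the early activator Zelda, and GGTCACACT were near none of the 11, against 1.52% and 0.796% of all. CAGCTG was near 1 of the 11, against 3.41% of all, and TGANNNNGC was near none, against 9.28%. From replicate 2 alone CAGCTG was near 0 summits, and from replicate 1 alone GGTCACACT and TGANNNNGC were near 1 each, as they were within 100 bp. These matches are descriptions of the letters in the windows and do not show which factor was bound.

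Ribosomal protein genes, which also encode parts of large complexes, had IDR promoter summits at larger shares. Cytoplasmic ribosomal protein genes had an IDR promoter summit at 72 of 92 genes (78.3%) and mitochondrial ribosomal protein genes at 38 of 73 (52.1%), beside 10 of 32 for the standard proteasome subunits. In the pooled list the shares were closer, with 89.1%, 71.2% and, for the standard subunits, 81.2%. The median rank in the pooled list of the strongest promoter summit was 3227 for cytoplasmic and 5675.5 for mitochondrial ribosomal protein genes, and 9357 for the proteasome. These differences were not tested.

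Genes that work with the proteasome were also counted, from a list of 29 that also holds Gas8, an axonemal gene. RpS27A and RpL40 of this list are among the cytoplasmic ribosomal protein genes as well. An IDR promoter summit was found at 12 (41.4%), where 23.5% of all protein-coding genes had 1. The list was chosen with earlier results known, and the difference was not tested. The strongest were those of cnc, the NF-E2 family factor that activates proteasome genes under stress, with a signal value of 703, and of Pomp, an assembly chaperone of the core, with 671. The cnc summit lay 337 bp downstream of an own TSS, and ranked 1258 and 1924 in the replicates, and that of Pomp ranked 1771 and 1289. Next were the ubiquitin genes Ubi-p63E with 402 and RpS27A with 392, and Plap, a ubiquitin-binding protein, with 301. The core regulator PI31 had 265 and the ubiquitin ligase Ube3a had 220, and a TSS of ADD1 and of CG7600, respectively, lay nearer to these summits. The cnc partner maf-S had 205 and its inhibitor Keap1 had 203. Pngl, a deglycosylating enzyme, had 205, p47, a cofactor of the unfoldase TER94, had 168, and Uch-L5, a deubiquitinase that binds Rpn13, had 151, which is the last of the 7927 IDR peaks and lies nearer to the TSS of Jarid2, at 14 bp against 59 bp. Gas8, Npl4, PSMG1, REG, Rad23, RpL40, STUB1, Sem1, TER94, Uba1, Ubi-p5E, Ubqn, Ubr1, Ufd1, Usp14, rngo and sip3 had none, although 10 of these 17 had a promoter summit in the pooled list. Sem1 encodes a small lid subunit that the name rule leaves out, and it had a promoter summit only in replicate 2, with rank 13231.

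The COP9 signalosome, a complex related to the lid that trims the ubiquitin-like protein Nedd8 from cullins, had an IDR promoter summit at 2 of its 9 genes (22.2%, where 23.5% of all protein-coding genes had 1), alien with a signal value of 374 and CSN8 with 164. The alien summit was 60 bp from the TSS of CG18661 and 166 bp from its own, and that of CSN8 was 14 bp from the TSS of RpS13. CSN1a, CSN1b, CSN3, CSN4, CSN5, CSN6 and CSN7 had none, and CSN4 and CSN5 had weaker promoter summits in the pooled list, with 113 and 47.1. Whether lid and signalosome genes differ was not tested.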

How the data were processed

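Peak lists on assembly dm6 were used as deposited. The deposited text files list peak calls for either replicate and for both combined, against a common control, and an IDR set derived from them. Which peak caller was used, and with what settings, is not given in the sources used here. Peak height is the authors' score in the 7th column of each list. The deposited −log10 q-values were not used to select or rank peaks. The summit offset is another value from the authors. The IDR set is identical to the top 7927 pooled peaks by signal; the other lists have a set length of 30000. The depth is unknown, and nothing says how far the replicates share embryos.

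Summits were assigned to genes of Ensembl release 115, and sequence came from genome release 6, with Python 3.11.15, numpy 2.4.6, pandas 2.3.3, scipy 1.17.1 and matplotlib 3.10.9. Counting was tested on simulated summits. All members are accounted for; positions and replicate values are given for the 10 genes with the strongest IDR promoter summits. Members, partner genes and motifs were chosen with earlier results of these data known. Of 36 partner symbols, 5 matched no gene and 2 were synonyms of listed genes. Gas8, an axonemal gene, stayed in the list as fixed. Alternatives were other distances, windows, peak lists, replicates, motif widths and TSS sets.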

Additional observations from a re-analysis of the deposited data

How the results depend on the processing

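The count of 10 genes with an IDR promoter summit was 9 at 250 bp (18.5% of all protein-coding genes), and 10 at 1000 bp (27.6%), with any base of the peak, and from either replicate alone. At 100 bp, where the share of all protein-coding genes was 7.16%, it was 5 (lid 2, alpha 0, partner genes 6, COP9 genes 0), and the alpha count was 0 at 250 bp. Among the 3963 strongest IDR peaks (13.6% of all genes) it was 4 (lid 3, base 1, alpha 0, beta 0, partners 4, COP9 1, own TSS nearest at 2, window count 11 of 48 beside 27.6% of all genes). In the 1000 strongest (4.2%) it was 1 (lid 1, base 0, alpha 0, beta 0, partners 0, COP9 0, own TSS nearest at 1, window count 4 of 48 beside 9.54% of all genes). In the whole pooled list (46.4%) it was 26 (alpha 6, beta 5, base 7, partners 22, COP9 4, own TSS nearest at 18, window count 29 of 48 beside 62.5% of all genes). The R or T copies stayed at 0 under each of these. In the whole pooled list the own TSS was thus nearest at 18 of the 26 genes (69.2%), beside 83.4% of all protein-coding genes with a promoter summit. That share over all genes was not counted for the 3963 or 1000 strongest peaks or for single replicates. The window count was 2 of 48 for the gene span alone and 32 of 48 with 10 kb, beside 15.6% and 70.5% of all protein-coding genes. Counting only summits nearest to the own TSS, chosen after seeing the data, left lid 4, base 1, alpha 0 and beta 0, beside 2457 of the 13945 protein-coding genes. Leaving out a replicate gave beta 0 to 1, base 2 to 3, lid 6, COP9 1 to 2 and own TSS nearest 6 to 7. Of the 25 genes in both replicates, 8 remained among the strongest 7927 of each, and 10 had an IDR promoter peak overlapped in both, which the choice of IDR peaks largely fixed beforehand. The median signal value of 242 was 98.0 without replicate 1 and 153 without replicate 2, in lists with other scales, where all protein-coding genes had 154 and 214. Among the 3963 strongest peaks TATCGATA was near 0 promoter summits of the family and TAATTA near 1. No paired analysis was possible because there is 1 group.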

Other observations

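Rpn1 had a promoter peak in both replicates and none in the pooled list, where the nearest summit was 4742 bp from its TSS. The replicate 1 peak, on chr3L:19914835-19915204, ranked 7895, and the replicate 2 peak, on chr3L:19914904-19915253, ranked 16574. Among the partner genes, REG and Rad23 showed the same pattern, and Rad23 ranked 7182 in replicate 1. Over all protein-coding genes with a promoter summit in both replicates, 197 of 5914 (3.33%) had none in the pooled list, beside 1 of 25 for the proteasome. Of the strongest 7927 peaks of replicate 1, 7799 overlapped a peak of replicate 2, and 68 of these overlapped no pooled peak.

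Members are spread over the genome, with 8 genes on 2L, 13 on 2R, 7 on 3L, 14 on 3R and 6 on X. Their closest pairs are Prosbeta4R1 with Prosbeta4R2, 1467 bp apart, and Prosalpha1 with Prosalpha1R. The next pair, Rpn9 and Rpt5, is 19413 bp apart, and both had a promoter summit in the pooled list.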
